A study of Mus musculus with 8 samples.

Results

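The actin isoform genes of the mouse are Actc1, Acta1, Acta2, Actg2, Actb and Actg1, and all 6 were taken by name, through the transcripts that the GENCODE M21 annotation (build mm10) gives to them, from a table of 51169 transcripts and 18137 named genes. Of their 30 annotated transcripts, 15 were analysed, and their values were also summed per gene. The RNA came from hearts of wild-type mice, in 4 sedentary samples and 4 samples after swimming training, within a study of the aging heart. The labels give neither the ages of the mice nor the length of the training, and they name no batch. They number biological replicates without saying that each is a separate animal, so that p-values measure the spread between these samples only. Values are FPKM, fragments scaled to transcript length and to the mapped fragments of the library, which allows levels to be compared between genes.

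Actin is the protein of the thin filament of muscle and of the cytoskeleton of all cells. Mammals carry 6 isoforms: Actc1 encodes cardiac alpha-actin and Acta1 skeletal alpha-actin, the striated muscle isoforms, Acta2 and Actg2 encode the smooth muscle alpha and gamma isoforms, and Actb and Actg1 encode the cytoplasmic beta and gamma isoforms. The adult rodent heart uses mainly the cardiac isoform, while the skeletal isoform is abundant in the fetal heart and returns under pressure overload. Transcription of the muscle isoforms depends on serum response factor (SRF), which binds a sequence called the CArG box. SRF acts with cofactors of the myocardin family, some of which sense free actin monomers.

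In mm10 all 6 genes lie on the minus strand, each on a chromosome of its own. Actc1 (ENSMUSG00000068614) is at chr2:114047282-114053548, Acta1 (ENSMUSG00000031972) at chr8:123891769-123894751 and Acta2 (ENSMUSG00000035783) at chr19:34241090-34255590. Actg2 (ENSMUSG00000059430) is at chr6:83512905-83536265, Actb (ENSMUSG00000029580) at chr5:142903115-142906754 and Actg1 (ENSMUSG00000062825) at chr11:120345690-120348542.

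The first 60 coding bases of the most abundant transcript of each gene show how alike the isoforms are and where they part. They are taken from the GENCODE M21 transcripts and printed 5′ to 3′, with capitals at bases that differ from, or have no partner in, Actc1 after alignment of the whole coding sequences.
Actc1: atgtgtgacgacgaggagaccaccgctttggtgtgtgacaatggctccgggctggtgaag
Acta1: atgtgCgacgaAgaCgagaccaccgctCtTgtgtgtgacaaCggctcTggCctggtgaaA
Acta2: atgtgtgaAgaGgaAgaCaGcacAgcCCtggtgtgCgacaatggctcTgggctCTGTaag
Actg2: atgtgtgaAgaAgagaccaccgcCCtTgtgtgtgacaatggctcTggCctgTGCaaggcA
Actb: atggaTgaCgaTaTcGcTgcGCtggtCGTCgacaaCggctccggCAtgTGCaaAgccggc
Actg1: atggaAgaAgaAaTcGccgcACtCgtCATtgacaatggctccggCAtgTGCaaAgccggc
In this window Acta1 differed from Actc1 at 9 bases, Actg2 at 11, Acta2 at 14, Actg1 at 17 and Actb at 19. Over the whole coding sequence, which spans 1131 bases without the stop codon in Actc1, Acta1 and Acta2, 1128 in Actg2 and 1125 in Actb and Actg1, the highest identity was 88.6%, between Actb and Actg1. Actc1 and Acta1 were 86.3% identical and the lowest identity was 82.0%, between Acta2 and Actg1 and likewise between Actc1 and Actg1.

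Whether reads can be told apart depends on stretches shared with other genes. Of the 1424 windows of 50 bases in the main Actc1 transcript, 0 occurred in an annotated transcript of any other gene, on either strand. The share was 2.22% for Acta1, of which 2.004% was shared with Actb, and 0.352% for Acta2. For Actb it was 14.2%, of which 9.57% was shared with Lrrc58, an unrelated gene with 30.3 to 33.6 FPKM in these libraries. For Actg1 it was 60.7%, most of it shared with Gm12715 (54.7%) and Gm8399 (38.1%), neither of which is among the named genes analysed here. With windows of 100 bases, 54.7% of Actg1 and 1.10% of Actb remained shared and none of the other 4 isoforms. Neither the read length nor the handling of reads with several matches is stated, and the level of Actg1 is the most uncertain of the 6 on this account. On the opposite strand the span of the gene A530058N18Rik covers all 6267 bases of the Actc1 span, introns included. Gm20388 likewise covers all 2983 bases of the Acta1 span. Neither is among the named genes analysed here. No window of 100 bases of the main Actc1 or Acta1 transcript, and none of 50 bases for Actc1, occurred in their annotated transcripts. The protocols do not say whether strand was kept, so reads of such partners that fall within the actin genes cannot be told apart by strand.

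The promoters of 4 members were matched in RefSeq (build GRCm38.p6), from 250 bases before to 50 after the RefSeq start. That start can differ from the GENCODE start. The main Actg1 transcript, Actg1-204, begins at chr11:120348091, outside the Actg1 window. Acta2-201 begins at chr19:34255590, so that most of the Acta2 window lies within its span. The promoters are shown because the 4 genes share a known regulator. They are printed in the direction of transcription, with capitals at CArG boxes and at boxes with 1 of the 6 inner bases not A or T.
Actc1 promoter, chr2:114052826-114053125, minus strand: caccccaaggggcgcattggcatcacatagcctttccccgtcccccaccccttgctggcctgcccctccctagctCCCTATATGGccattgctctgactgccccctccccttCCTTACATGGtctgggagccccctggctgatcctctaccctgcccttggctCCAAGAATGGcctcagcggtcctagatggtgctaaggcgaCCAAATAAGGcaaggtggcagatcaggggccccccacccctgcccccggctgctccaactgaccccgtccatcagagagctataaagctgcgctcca
Acta1 promoter, chr8:123894726-123895025, minus strand: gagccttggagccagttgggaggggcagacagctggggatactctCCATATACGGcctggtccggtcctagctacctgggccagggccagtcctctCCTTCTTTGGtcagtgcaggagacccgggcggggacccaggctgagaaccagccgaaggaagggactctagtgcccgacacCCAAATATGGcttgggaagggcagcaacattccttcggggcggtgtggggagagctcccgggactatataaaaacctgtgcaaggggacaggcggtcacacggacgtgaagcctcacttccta
Acta2 promoter, chr19:34255324-34255623, minus strand: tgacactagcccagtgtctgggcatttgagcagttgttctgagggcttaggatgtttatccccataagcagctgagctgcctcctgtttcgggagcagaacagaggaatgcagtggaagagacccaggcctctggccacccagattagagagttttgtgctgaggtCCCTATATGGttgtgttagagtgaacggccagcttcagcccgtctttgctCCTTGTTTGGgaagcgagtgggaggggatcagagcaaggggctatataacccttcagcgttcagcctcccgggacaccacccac
Actg1 promoter, chr11:120348446-120348745, minus strand: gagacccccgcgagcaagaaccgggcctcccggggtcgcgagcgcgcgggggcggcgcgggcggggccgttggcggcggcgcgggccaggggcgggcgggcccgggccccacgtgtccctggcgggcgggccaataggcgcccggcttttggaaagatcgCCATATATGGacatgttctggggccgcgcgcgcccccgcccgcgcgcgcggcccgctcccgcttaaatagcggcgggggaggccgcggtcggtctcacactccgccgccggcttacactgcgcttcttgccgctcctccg
Actc1 held 1 CArG box, CCAAATAAGG, which began 47 bases before the start. Acta1 held CCAAATATGG, beginning 73 bases before the start, and Actg1 held CCATATATGG, beginning 90 bases before it. Boxes with 1 inner mismatch numbered 3 in Actc1, 2 in Acta1 and 2 in Acta2, and Acta2 held 0 exact boxes in this window. Exact boxes occurred in 535 of 32851 promoters of the same length (1.63%), boxes with 1 inner mismatch in 8.50%, and 2 or more of either kind in 0.822%. The pattern of the box, though not every match to it, reads the same on both strands. A match is a run of letters and was not tested as a binding site.

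**Figure D1:**
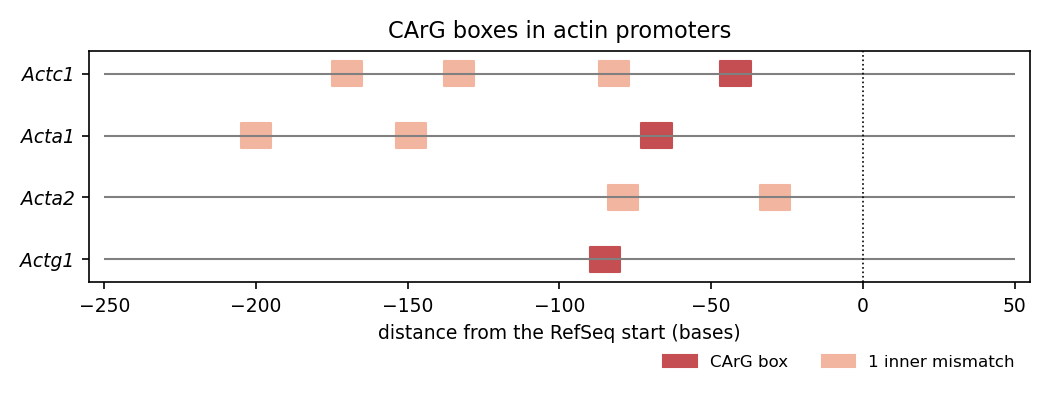
Positions of CArG boxes (dark) and boxes with 1 inner mismatch (light) in 4 actin promoters, with the distance from the RefSeq start in bases on the horizontal axis. Actc1 carries 4 boxes of either kind, Acta1 carries 3, Acta2 carries 2, without an exact one, and Actg1 carries 1.

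All 10 cardiomyocyte markers were above 0 in every library, and their summed level was 9140 to 10513 FPKM in sedentary and 9249 to 9999 FPKM in swimming hearts. The summed level of 7 macrophage markers was 157.2 to 165.6 FPKM in sedentary and 192.7 to 213.6 FPKM in swimming libraries, without overlap. Most of that sum was Lyz2 (88.0 to 99.2 and 105.9 to 121.1 FPKM). The mean log2 level was higher after swimming in 6 of the 7 markers and lower in Ptprc. In this list 0 of 7 were called (lowest limma adjusted p = 0.434, for Lyz2). The sums of 7 fibroblast markers (227.3 to 284.1 and 258.3 to 288.7 FPKM), 5 endothelial (125.8 to 140.6 and 125.9 to 138.8), 5 adipocyte (163.8 to 218.3 and 166.8 to 218.7) and 5 red blood cell markers (448.4 to 1208 and 474.7 to 1088) overlapped. The adipocyte sum was nearly all Fabp4, which endothelial cells also use (163.7 to 218.3 FPKM). The 4 atrial markers summed to 27.1 to 105.7 and 66.3 to 125.5 FPKM, most of it Nppa. The atrial light chain gene Myl7 was listed at 0 in 5 libraries and at 0.00401 FPKM at most. The atrial light chain gene Myl4 was at 6.96 and 5.13 FPKM in swimming replicates 2 and 3 and at most 0.489 FPKM elsewhere. Sln, which encodes sarcolipin, was at 1.55 and 0.769 FPKM in the same libraries and at most 0.556 FPKM elsewhere. Within the swimming group Nppa went the other way. It was at 71.3 and 60.4 FPKM in replicates 2 and 3 and at 119.8 and 125.1 FPKM in replicates 1 and 4. Without swimming replicates 2 and 3 the log2 difference was 0.55 for Actc1, -0.37 for Acta1 and -0.74 for Acta2. None of them was called (lowest limma adjusted p = 0.425). Mitochondrially encoded genes held 19.1% to 20.8% of the FPKM total in sedentary and 13.4% to 18.5% in swimming libraries, lowest in swimming replicate 2. Sedentary replicate 4 carried transcripts of liver, with Alb at 23.2 FPKM there and at most 0.0865 FPKM elsewhere, and a sum of 39.8 FPKM over 4 liver markers against at most 0.579 FPKM elsewhere. It also stood apart in the fat cell genes Cfd (11.96 FPKM, at most 0.668 elsewhere), Adipoq (2.799 FPKM, at most 0.139 elsewhere) and Plin1 (2.13 FPKM, at most 0.0913 elsewhere). Without it the log2 difference was 0.67 for Actc1, -0.37 for Acta1 and -0.71 for Acta2, again not called (lowest limma adjusted p = 0.685). The part of these differences in the actin values was not tested.

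The levels of the 6 genes came in the order Actc1, Actb, Actg1, Acta1, Acta2 and Actg2. Over all 8 libraries the mean was 2719 FPKM for Actc1, which ranked as number 7 of all named genes by mean level. Actb followed at 205.4 FPKM, Actg1 at 88.2, Acta1 at 82.5, Acta2 at 20.2 and Actg2 at 0.141 FPKM. Actg1 and Acta1 did not differ beyond their spread, since Actg1 was the higher of them in 6 of 8 libraries and their ranges overlapped. The other neighbours in this order had ranges that lay apart. Actc1 mean levels were 13.2 times those of Actb.

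**Figure D2:**
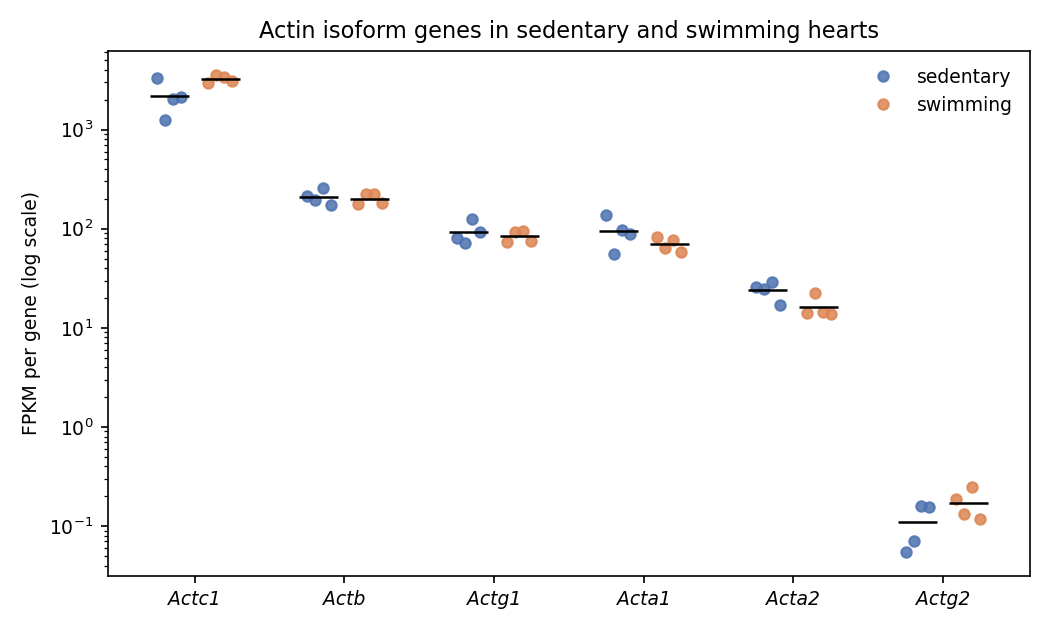
FPKM per gene on a log axis for the 6 actin genes in 4 sedentary (blue) and 4 swimming (orange) hearts. Points are libraries and black lines are group means. Actc1 lies above all other isoforms and Actg2 is at most 0.248 FPKM in any library.

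Actc1 carries the bulk of the actin message of the heart. It stood at 3331, 1260.3, 2019 and 2108 FPKM in sedentary replicates 1 to 4 and at 2975, 3581, 3421 and 3059.95 FPKM in swimming replicates 1 to 4. Sedentary replicate 1 reached into the range of the swimming libraries, while the other 3 sedentary libraries lay below all of them. The group means were 2179.5 ± 856.9 and 3259 ± 288.95 FPKM (SD, n = 4 each), 1.495 times as high after swimming. On the log2(FPKM + 0.5) scale the difference was 0.66 (SE 0.26) and did not pass (limma adjusted p = 0.658). The coefficient of variation, the SD over the mean, was 39.3% in sedentary and 8.87% in swimming hearts. Nearly all of the signal, 99.7% to 99.96% of the gene's FPKM, came from Actc1-201. The short Actc1-202, which also has a coding sequence, was between 1.08 and 7.71 FPKM.

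The Actc1 level depends on what is counted as Actc1. The table also lists assembled transcripts that carry no gene name, 23 of them with a mean of at least 100 FPKM. Among these the 2 whose FPKM varied most strongly against that of Actc1 were TCONS_00012305 and TCONS_00012306. TCONS_00012305 had 166.9, 1304, 933.4 and 857.0 FPKM in sedentary replicates 1 to 4, and was listed at 0 in all 4 swimming libraries (limma adjusted p = 0.00281 over all transcripts). TCONS_00012306 was at 398.9, 1282, 1069 and 928.6 FPKM in sedentary and at 55.2 to 62.8 FPKM in swimming libraries (limma adjusted p = 0.0256). Both were lowest in the sedentary library with the most Actc1 and highest in the one with the least. When both were added to Actc1, the sedentary libraries came to 3897, 3847, 4021 and 3893 FPKM and the swimming libraries to 3038, 3643, 3479 and 3115 FPKM. The means of that sum were 3914 ± 74.5 and 3319 ± 289.5 FPKM, so the direction turned and the sedentary spread shrank from 856.9 to 74.5 FPKM. These transcripts were picked with their values known and for running against Actc1, which by itself narrows the sum. Which gene they come from was not tested.

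**Figure D3:**
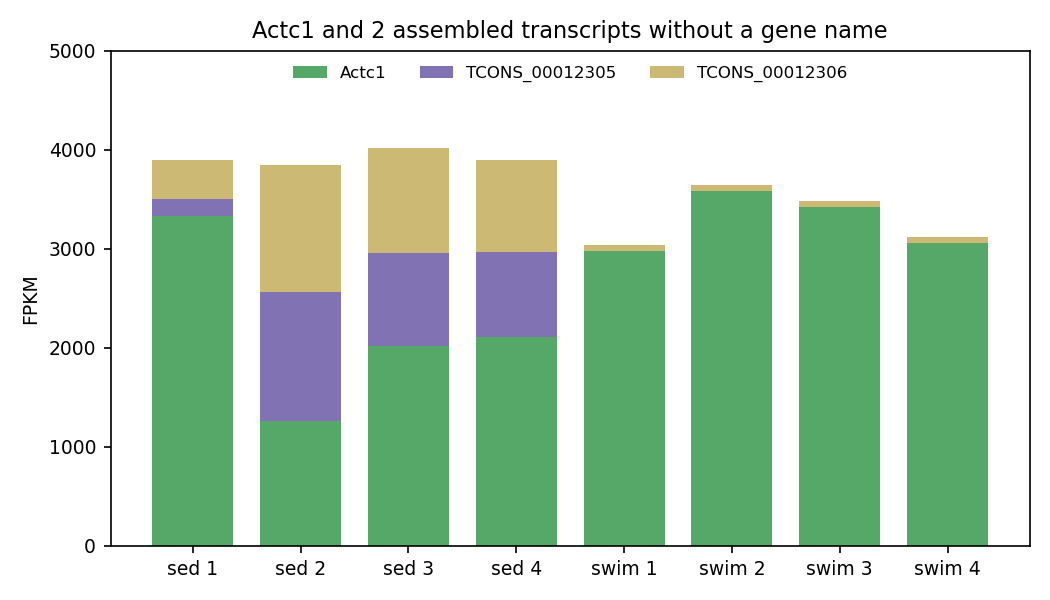
Stacked FPKM of Actc1 (green) and of 2 assembled transcripts without a gene name (purple and sand) in each library. The stacks reach 3847 to 4021 FPKM in sedentary (sed) and 3038 to 3643 FPKM in swimming (swim) libraries, while the green part alone is lowest in sedentary replicate 2, at 1260.3 FPKM.

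Acta1 ran lower by group mean. Its signal came almost wholly from Acta1-201, with Acta1-202 at 0.702 FPKM at most. It stood at 137.6, 55.9, 96.2 and 88.9 FPKM in sedentary replicates 1 to 4 and at 82.4, 63.7, 76.8 and 58.5 FPKM in swimming replicates 1 to 4. The ranges overlapped, with sedentary replicate 2 below every swimming library and sedentary replicate 1 far above them. Means were 94.7 ± 33.6 and 70.3 ± 11.1 FPKM (log2 difference -0.37, SE 0.26, limma adjusted p = 0.767). Skeletal muscle was checked as another source, because Acta1 is its main actin. The 9 skeletal muscle markers summed to 0.550 to 1.37 FPKM in sedentary and 0.456 to 0.540 FPKM in swimming libraries, all near the floor. The swimming sums were the lower without overlap, but narrowly so, with a highest of 0.540 against a lowest sedentary sum of 0.550 FPKM. Of the 9 markers, 0 passed the filter for testing. Among them the fast troponin gene Tnni2 was listed at 0 in 7 libraries and at 0.000444 FPKM in the remaining one, and no marker of the list exceeded 0.444 FPKM. Sedentary replicate 4, highest in this sum at 1.37 FPKM, was not highest in Acta1, and the part of skeletal muscle in the Acta1 values was not tested.

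Acta2, the actin of vascular smooth muscle and of activated fibroblasts, stood at 25.6, 24.8, 28.7 and 17.1 FPKM in sedentary and at 14.0, 22.6, 14.5 and 13.9 FPKM in swimming replicates 1 to 4. Swimming replicate 2 alone lay within the sedentary range, and sedentary replicate 4 was the lowest of its group. The means were 24.1 ± 4.93 and 16.3 ± 4.23 FPKM, a log2 difference of -0.56 (SE 0.20) that did not pass (limma adjusted p = 0.657). The 6 smooth muscle markers gave sums of 28.1 to 37.0 FPKM in sedentary and 33.0 to 36.5 FPKM in swimming libraries, and the smooth muscle myosin gene Myh11 was above 0 in all 8, between 0.197 and 2.18 FPKM. The 6 pericyte markers summed to 268.9 to 277.0 and 233.1 to 272.1 FPKM, with a higher mean log2 level after swimming in 4 of 6 and 0 of 6 called. Among them Abcc9, a subunit of the ATP-sensitive potassium channel, had 80.3 ± 6.95 against 62.3 ± 4.35 FPKM without overlap (limma adjusted p = 0.479). Kcnj8, the pore subunit of that channel, had 2.19 ± 0.250 against 5.68 ± 4.36 FPKM. Its swimming values were split, at 2.10, 1.71, 9.33 and 9.56 FPKM in replicates 1 to 4. Cspg4 had 2.44 ± 0.883 against 3.12 ± 0.594 FPKM, Pdgfrb 12.4 ± 1.23 against 12.5 ± 1.196, Notch3 11.9 ± 0.592 against 11.9 ± 0.523 and Rgs5 164.5 ± 4.85 against 157.3 ± 12.1 FPKM. Among 5 markers of activated fibroblasts, Acta2 included, which summed to 34.8 to 72.4 and 38.0 to 54.7 FPKM, Postn had 33.4, 11.2, 13.4 and 12.4 FPKM in sedentary replicates 1 to 4 and 16.9 to 22.4 FPKM in swimming libraries. The part of these cells in the Acta2 values was not tested, and in whole tissue fewer cells of a type and less RNA per cell cannot be told apart.

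Actg2, the actin of visceral smooth muscle, was near the bottom of the table. It was at 0.0550, 0.0702, 0.159 and 0.155 FPKM in sedentary and at 0.190, 0.131, 0.248 and 0.119 FPKM in swimming replicates 1 to 4, below the mean of 0.5 FPKM required for testing. The groups overlapped, and Actg2-202 and Actg2-206 were listed at 0 in 7 and 6 of the 8 libraries.

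The cytoplasmic isoforms differed least between the groups. Actb, a common reference gene, was at 211.8, 195.3, 257.4 and 174.9 FPKM in sedentary and at 175.7, 224.8, 222.5 and 181.3 FPKM in swimming replicates 1 to 4. Means were 209.8 ± 35.1 and 201.1 ± 26.2 FPKM (log2 difference -0.06, SE 0.14, limma adjusted p = 0.938). The sign of this small difference turned with the scaling and with the libraries used. Actg1 was at 81.2, 71.4, 125.0 and 92.6 FPKM in sedentary and at 72.9, 92.3, 95.8 and 74.3 FPKM in swimming replicates 1 to 4 (means 92.6 ± 23.3 and 83.8 ± 11.9 FPKM, log2 difference -0.12, SE 0.18, limma adjusted p = 0.887). Sedentary replicate 3 was the highest of all libraries in both genes, and within the swimming group replicates 2 and 3 were the higher pair in both. The ratio of Actb to Actg1 was 2.32 ± 0.412 in sedentary and 2.40 ± 0.0543 in swimming hearts.

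Across the family 0 of the 5 genes tested were called in either direction, against 0.0171% of the 11674 genes tested (2 genes, limma adjusted p below 0.05). At an unadjusted p below 0.05 limma found 2 of the 5, Actc1 with a higher and Acta2 with a lower mean, against 4.93% higher and 2.43% lower among all genes tested (7.37% in either direction). In 0 of the 5 did the groups lie apart, against 4.82% of all genes tested. Per transcript, 10 of 15 passed the filter on low values and 0 of 10 were called, against 0.0531% of 22614 transcripts, with 2 at an unadjusted p below 0.05, Actc1-201 and Acta2-201 (5.51% of all transcripts tested). Beside the main transcripts, Actb-208 was at 5.45, 5.56, 8.47 and 11.4 FPKM in sedentary and at 4.75, 5.52, 5.20 and 5.33 FPKM in swimming replicates 1 to 4 (limma adjusted p = 0.877). Actg1-206, annotated as a target of nonsense-mediated decay, made up 2.63% to 7.01% of the gene's FPKM, with 2.75 ± 0.388 against 3.64 ± 1.29 FPKM (limma adjusted p = 0.879). Actb-202 was between 0.304 and 1.31 FPKM, Actg1-205 between 0.968 and 4.14 FPKM, and Actg1-202 at 0.216 FPKM at most.

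As shares of the summed FPKM of all 6 genes, the striated isoforms Actc1 and Acta1 and the smooth muscle isoform Acta2 separated the groups. Actc1 held 88.0%, 78.4%, 79.9% and 84.9% in sedentary replicates 1 to 4 and 89.3% to 90.3% in swimming libraries. Acta1 held 3.63%, 3.48%, 3.81% and 3.58% in sedentary and 2.48%, 1.599%, 2.004% and 1.73% in swimming replicates 1 to 4, and Acta2 held 0.676% to 1.54% and 0.379% to 0.567%. For these 3 genes the groups did not overlap, but with the same 2 assembled transcripts added to Actc1 they overlapped in all 3 (Actc1 90.3% ± 1.39 and 89.9% ± 0.425, Acta1 2.18% ± 0.751 and 1.92% ± 0.382, Acta2 0.554% ± 0.104 and 0.438% ± 0.0825). Actb held 8.74% ± 2.97 in sedentary and 5.52% ± 0.244 in swimming hearts, and Actg1 3.82% ± 1.22 and 2.30% ± 0.145, both with overlap. Since the shares sum to the whole, a higher Actc1 level lowers the share of every other isoform. The separations of the 3 genes are therefore not independent of each other, and in FPKM the groups overlapped for all 6 genes. How often such shares lie apart among other genes was not computed. The summed FPKM was 3788, 1608, 2526 and 2481 in sedentary and 3320.0, 3985, 3831 and 3388 in swimming replicates 1 to 4, and the shares are given without a test.

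Within the striated pair, Acta1 made up 3.97%, 4.25%, 4.55% and 4.05% of the Acta1 and Actc1 FPKM in sedentary replicates 1 to 4 and 2.70%, 1.75%, 2.19% and 1.88% in swimming replicates 1 to 4. The groups did not overlap, and the swimming libraries were the lower. The share fell from 4.203% ± 0.261 to 2.13% ± 0.422 (SD, n = 4 each), and the exact two-sided permutation p = 0.0286 is the smallest that 4 against 4 libraries can give. In the sedentary group this share varied little although each gene varied widely, with a coefficient of variation of 6.20% for the share, 39.3% for Actc1 and 35.5% for Acta1. In swimming libraries it was 19.8% for the share, 8.87% for Actc1 and 15.8% for Acta1. Put as a ratio, Actc1 was 22.9 ± 1.44 times Acta1 in sedentary and 47.3 ± 8.90 times Acta1 in swimming hearts. With the sum of Actc1 and both assembled transcripts in place of Actc1, the Acta1 share was 3.41%, 1.43%, 2.34% and 2.23% in sedentary and 2.64%, 1.72%, 2.16% and 1.84% in swimming replicates 1 to 4. The groups then overlapped, at 2.35% ± 0.812 against 2.09% ± 0.412. Both transcripts were picked for running against Actc1 and were lower in all swimming libraries, which by itself draws the groups together. The overlap is therefore given without a test. The comparison of the Acta1 share, like that of Actc1 alone, depends on whether these transcripts are counted as Actc1. Which gene they come from was not tested.

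**Figure D4:**
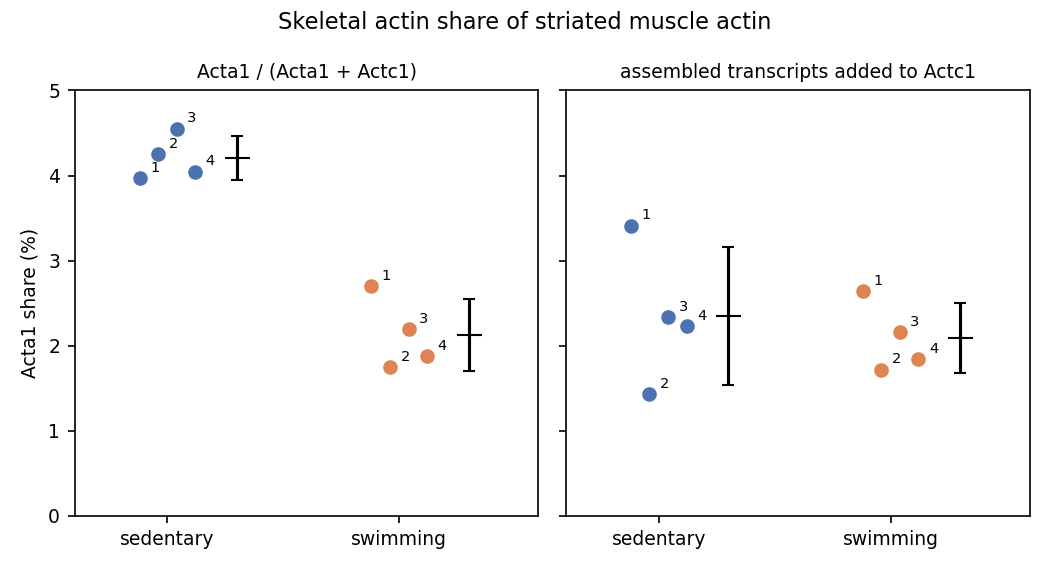
Acta1 as a percentage of Acta1 plus Actc1 (left), and with both assembled transcripts added to Actc1 (right). Points are libraries with their replicate numbers, and bars show the mean and SD of 4 libraries. On the left the groups lie apart, at 4.203% and 2.13%, and on the right they overlap, at 2.35% and 2.09%.

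Genes with a profile like that of each isoform were ranked by the mean absolute difference of log2(FPKM + 0.5), centred on its mean, over the 8 libraries, among 2729 named genes with a mean of at least 10 FPKM. Nearest to Actc1 was Ankrd1, which encodes the cardiac ankyrin repeat protein of the sarcomere, at a mean difference of 0.14 log2 units, where the median gene lay at 0.43. Ankrd1 had 684.6, 258.6, 345.1 and 387.0 FPKM in sedentary replicates 1 to 4 and 562.4, 551.4, 507.6 and 564.2 FPKM in swimming replicates 1 to 4. As in Actc1, sedentary replicate 1 was high and the other sedentary libraries were below all swimming ones. Gpx3, which encodes the secreted glutathione peroxidase, followed at 0.19 and Limch1 at 0.20 log2 units, both with sedentary replicate 2 as the lowest library. The limma adjusted p was 0.716 for Ankrd1, 0.671 for Gpx3 and 0.760 for Limch1.

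**Figure D5:**
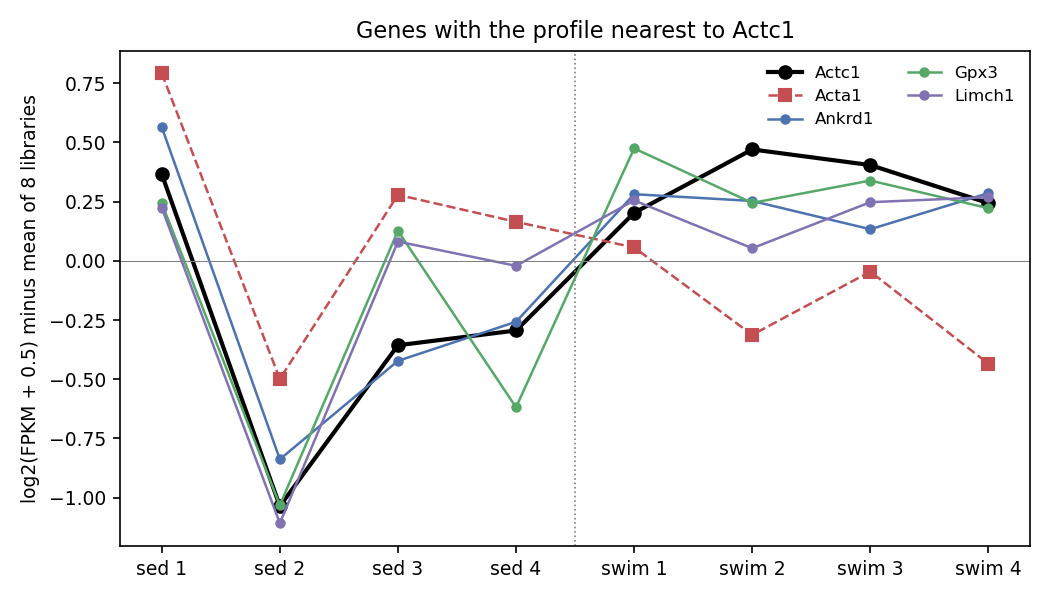
Centred log2(FPKM + 0.5) of Actc1 (black), Acta1 (dashed red) and the 3 genes nearest to Actc1 in each of the 8 libraries. All 5 are at their lowest in sedentary replicate 2, and in swimming libraries Actc1, Ankrd1, Gpx3 and Limch1 lie above their means while Acta1 lies at or below its own in 3 of 4.

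Nearest to Acta1 were Hadhb, a subunit of the trifunctional protein of fatty acid oxidation, at 0.17 log2 units, the ribosomal protein gene Rpl11 at 0.22 and the glycosyltransferase gene B3galnt2 at 0.22, against a median of 0.34. Nearest to Acta2 were the collagen gene Col6a2 and the cold-induced RNA-binding protein gene Rbm3, both at 0.19, and the mitochondrial ribosome gene Mrps23 at 0.19, against a median of 0.39. In Rbm3 (15.1 ± 0.504 against 11.2 ± 2.02 FPKM, limma adjusted p = 0.586) and Mrps23 (15.6 ± 3.995 against 9.32 ± 1.66 FPKM, limma adjusted p = 0.597) the groups lay apart, with swimming lower. Ttc7b, Txnrd1 and the tubulin gene Tubb2a were nearest to Actb, at 0.08 to 0.09 against a median of 0.19. The integrin gene Itga5, the lamin gene Lmna and again Tubb2a were nearest to Actg1, at 0.09 to 0.10 against a median of 0.23. Among transcripts with a mean of at least 100 FPKM, nearest to the mirror image of Actc1 on this log scale was one of Ndufb8, a complex I subunit gene, with 123.8 ± 9.67 against 102.2 ± 3.91 FPKM (limma adjusted p = 0.735). Next were transcripts of the ribosomal protein gene Rps4x and of the muscle creatine kinase gene Ckm.

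The proteins that make, bind and regulate actin were followed in 8 lists with 138 different genes, of which 126 were tested. Of these, 61 had a higher and 65 a lower mean after swimming, the median log2 difference was -0.01, and 0 were called. Over all 11674 genes tested, 58.7% had a higher mean, the median was 0.03 and 0.0171% were called. At an unadjusted p below 0.05 limma found 6 of the 126 with a higher and 3 with a lower mean, 7.14% in all against 7.37% of all genes tested. In 3 of the 126 (2.38%) the groups did not overlap, against 4.82% of all genes tested.

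Of the SRF regulators, 17 of 18 were tested, with 6 means higher and 11 lower and a median log2 difference of -0.04. Srf itself had 12.9 ± 1.90 against 12.5 ± 0.877 FPKM (limma adjusted p = 0.959), and the cofactor gene Myocd was below the filter. The members with the smallest p were Hopx, a repressor of SRF (74.3 ± 7.44 against 65.3 ± 6.48 FPKM), Mef2a (9.08 ± 4.03 against 6.14 ± 0.614 FPKM) and the actin-sensing cofactor gene Mrtfa (1.45 ± 0.146 against 1.64 ± 0.0824 FPKM). Of the known SRF targets, 20 of 22 were tested, with 7 means higher and 13 lower and a median of -0.07. Des, which encodes desmin, had 213.3 ± 38.7 against 292.0 ± 20.3 FPKM and lay higher without overlap. Fhl2 had 620.9 ± 10.5 against 482.4 ± 82.4 FPKM and lay lower without overlap (limma adjusted p = 0.608 for each). Myl9, a smooth muscle light chain gene, had 6.64 ± 1.16 against 8.11 ± 0.736 FPKM.

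The folding and modification list had 17 of 18 genes tested, with a median log2 difference of 0.01. Naa80, the enzyme gene for acetylation of the actin amino terminus, had 3.41 ± 0.303 against 4.11 ± 0.366 FPKM (limma adjusted p = 0.657), and the chaperonin subunit gene Cct4 had 23.3 ± 0.729 against 24.6 ± 1.53 FPKM. Pdcl3, a cofactor gene of the chaperonin, had 5.91 ± 0.300 against 5.44 ± 0.561 FPKM. In the monomer binding and turnover list, 9 of 18 means were higher and 9 lower. Tmsb4x, which encodes the monomer-binding thymosin beta 4, stood at 192.2, 153.7, 167.7 and 207.9 FPKM in sedentary and at 219.6, 316.1, 185.6 and 345.0 FPKM in swimming replicates 1 to 4 (limma adjusted p = 0.658). Dstn, the depolymerizing factor destrin, had 1.52 ± 1.48 against 0.211 ± 0.217 FPKM (limma adjusted p = 0.658), and the coronin gene Coro1b had 1.49 ± 1.06 against 2.59 ± 0.562 FPKM. In the list of filament ends and length, with 14 of 15 tested, 6 means were higher and 8 lower, and Tmod2, a tropomodulin that caps pointed ends, had 1.52 ± 0.247 against 1.87 ± 0.170 FPKM. Lmod3, a leiomodin, had 11.5 ± 0.915 against 12.8 ± 0.811 FPKM and Nebl, which encodes nebulette of the thin filament, had 19.5 ± 4.56 against 16.8 ± 1.11 FPKM.

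Nucleation and elongation genes had 13 of 19 means higher and a median log2 difference of 0.08. Within the Arp2/3 complex, which starts branched filaments, Arpc5 stood at 8.84, 6.45, 5.57 and 5.94 FPKM in sedentary and at 13.2, 14.5, 7.80 and 12.9 FPKM in swimming replicates 1 to 4 (limma adjusted p = 0.586). Sedentary replicate 1 lay above swimming replicate 3 and the other sedentary libraries lay below the swimming range. Actr3, which encodes the Arp3 subunit, had 27.1 ± 1.65 against 23.9 ± 1.67 FPKM and lay lower without overlap (limma adjusted p = 0.658), and Arpc1b had 5.03 ± 0.311 against 5.94 ± 0.734 FPKM. Crosslinker genes had 7 of 15 means higher and 8 lower, with the Z-disc alpha-actinin gene Actn2 at 409.4 ± 18.8 against 387.6 ± 16.8 FPKM. Actn1, the non-muscle alpha-actinin, had 5.93 ± 0.447 against 6.67 ± 0.859 FPKM and Palld, which encodes palladin, 38.9 ± 2.36 against 35.8 ± 2.75 FPKM. Of 7 actin-related genes tested, Actl6a, a subunit of chromatin remodelling complexes, was at 0.0281 FPKM or less in all sedentary libraries and in swimming replicate 1 and at 1.32, 2.74 and 1.69 FPKM in swimming replicates 2 to 4 (limma adjusted p = 0.608). Actr1b, a dynactin subunit gene, had 19.8 ± 0.601 against 20.7 ± 0.630 FPKM and Actr3b, an Arp3 homolog, 15.2 ± 2.67 against 18.3 ± 2.93 FPKM.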

How the data were processed

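Heart RNA of 4 sedentary and 4 swimming-trained samples was depleted of ribosomal RNA by RNase H and primed with random hexamers, per the labels' protocols. The authors deposited FPKM per transcript, per the file headers. The submitters' processing notes name Salmon 0.8.2, HISAT2, STAR 2.5.1a, featureCounts 1.4.6-p5, Subread and mm10, and not which of them made the values. Read totals are unknown, so no counting interval is given. No library pair looked like a duplicate (correlations of 0.941 to 0.951 over 28 pairs).

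GENCODE M21 named 45676 transcripts, which were summed to genes. Genes or transcripts with a mean of at least 0.5 FPKM entered a limma fit (version 3.58.1, R 4.3.3) of log2(FPKM + 0.5) (eBayes with trend, two-sided, Benjamini-Hochberg over all features). The scale understates changes of low genes. The Acta1 share was compared by exact permutation over the 70 assignments of 4 of 8 libraries. The limma fit was tested on simulated data with changes larger than the actin differences of the main fit. Whether it would call differences as small as the observed ones was not tested. Members and lists were chosen with earlier results of these data known. Genes are named by rule: all actin genes and transcripts, up to 3 members of each list by smallest p, the 3 genes nearest in profile to each isoform and the 3 transcripts nearest to the mirror image of the widest-ranging isoform. Srf, Myocd, the cell type markers and the assembled transcripts were named beside them with their values known. All columns were used. Alternatives covered the pseudocount, filter, scaling, block, weights, transcripts summed and libraries left out. Tables and plots used scipy 1.17.1, pandas 2.3.3, matplotlib 3.10.9 and Python 3.11.15.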

Additional observations from a re-analysis of the deposited data

Results flagged for a closer look

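In 46 groups of 4 libraries, covering the levels and shares of the actin genes, their summed level, the Acta1 share of the striated pair and the tested transcripts of Actc1, Acta1, Actb and Actg1, 2 held a library far from the other 3 by Dixon's test at the 95% level, where chance gives about 1 in 20. Acta2 was at 22.6 FPKM in swimming replicate 2 while the remaining swimming values were 13.9 to 14.5 FPKM. Actc1-202 was at 7.71 FPKM in sedentary replicate 1, the library with the highest Actc1 level of its group, while the remaining sedentary values were 3.56 to 4.24 FPKM.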

How the results depend on the processing

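The log2 differences of Actc1 (0.43 to 0.89), Acta1 (-0.60 to -0.17) and Acta2 (-0.74 to -0.47) kept their sign and stayed uncalled in all 21 alternatives (lowest limma adjusted p = 0.382, 0.643 and 0.425). Actb ran from -0.14 to 0.047 and Actg1 from -0.23 to 0.033 with each library left out, and Actb was 0.012 when scaled to the total without actin genes. Leaving out libraries also turned Actg1-204 (-0.26 to 0.0072), Actg1-205 (-0.21 to 0.35), Actc1-202 (-0.65 to 0.083), Actb-201 (-0.13 to 0.066) and Actb-202 (-0.11 to 0.28). Actg1-205 was 0.0057 with a pseudocount of 0.1, and Actb-202 was -0.017 with quantile normalization and -0.0048 with library weights. The cause was not tested. Of all genes, limma called 1 with a pseudocount of 0.1, 1 with quantile normalization, 0 without swimming replicates 2 and 3 (chosen after seeing the data), and 0 (without swimming replicate 2) to 5 (without swimming replicate 4) with a library left out. Calls of transcripts ran from 7 (without sedentary replicate 1) to 25 (without swimming replicate 3) with a library left out.

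Same-numbered samples did not deviate together (0 of 4 correlations above 0.1). This gave no sign that the numbers pair the samples, but it cannot exclude pairing, since small shared effects would not show. With the replicate number as a block, 0 genes and 0 transcripts were called, and the Acta1 share difference of -2.07 percentage points had an exact p = 0.125, the smallest 4 pairs allow. That difference ran from -2.26 to -1.95 with a library left out and the Actc1 share difference from 5.50 to 8.69. With both assembled transcripts added to Actc1, chosen after seeing the data, the differences were -0.26 and -0.38 percentage points, and that of Actc1 itself was -596 FPKM. Read depth is unknown, so the counting error of low genes such as Actg2 could not be given.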
